A study of Mus musculus with 31 samples.

Results

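At postnatal day 28 (P28), retinas of Rorb-/-;CrxpNrl mice, which lack the nuclear receptor gene Rorb and carry a transgene named for the Crx promoter and the gene Nrl, were compared with retinas of P28 +/+ mice. These 8 arrays, 4 of each genotype, were chosen by their age and genotype labels from the 31 arrays of the series. Each array held total RNA of both retinas of 1 mouse. P28 Rorb-/- mice (4 arrays), P28 +/+;CrxpNrl mice (3 arrays) and the same pair of genotypes at P14 (4 arrays each) are set beside them. The labels give no strain, sex, littermates, number of transgenic lines or deleted part of Rorb. Levels are RMA log2 signals, on which a difference of 1 is a 2-fold difference, and the array design is Affymetrix. The lower quartile of each array lay between 3.98 and 4.05 and its maximum between 14.1 and 14.3, and no detection call was used, so levels near 4 may hold little but background. In +/+ retinas the rod genes Gnat1 and Sag lay between 13.94 and 14.08. Arrays correlated at 0.990 to 0.993 within P28 +/+, at 0.984 to 0.994 within P28 Rorb-/-;CrxpNrl and at 0.961 to 0.978 between them. The median SD of a gene over 4 mice was 0.151 in Rorb-/-;CrxpNrl and 0.120 in +/+.

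Most photoreceptors of the mouse retina are rods, and their number and identity depend on a short chain of transcription factors. Rorb acts early in rod precursors, Nrl commits a precursor to the rod fate and represses cone genes, and Crx drives genes of rods and cones alike. Rods and cones build an outer segment, a stack of membranes that holds the opsin and the phototransduction enzymes, and they signal through ribbon synapses. Rorb is also active in amacrine and horizontal cells, the interneurons of the inner and outer retina. The comparison asks what a retina without Rorb expresses when Nrl is supplied from a transgene.

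The 250 bases before the annotated start of 5 genes are shown. These genes moved with the groups described below: Opn1sw and Gucy2e among the photoreceptor genes, Crx itself, and Ifit1 and Ifit3 among the interferon-stimulated genes. All 5 windows hold the match marked in them, which many other genes of their lists lack, so they do not represent those lists. Sequences are RefSeq's, build GRCm38.p6, 5′ to 3′ on the strand of the gene. Capitals mark a match on either strand to TAGGTCA, which receptors of the ROR family bind (Opn1sw), to TAATCC, the core that CRX binds (Crx and Gucy2e), or to TTTC, any 2 bases and TTTC, the core of the interferon response element (Ifit1 and Ifit3). The Ifit3 window also holds 1 match to TAATCC, which is left in lower case.
Opn1sw, chr6:29380514-29380763, minus strand: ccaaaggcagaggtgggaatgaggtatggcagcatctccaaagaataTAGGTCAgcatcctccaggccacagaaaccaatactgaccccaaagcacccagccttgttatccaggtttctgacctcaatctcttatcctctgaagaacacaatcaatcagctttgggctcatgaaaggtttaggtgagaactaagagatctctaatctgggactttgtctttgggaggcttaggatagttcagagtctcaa
Crx, chr7:15879956-15880205, minus strand: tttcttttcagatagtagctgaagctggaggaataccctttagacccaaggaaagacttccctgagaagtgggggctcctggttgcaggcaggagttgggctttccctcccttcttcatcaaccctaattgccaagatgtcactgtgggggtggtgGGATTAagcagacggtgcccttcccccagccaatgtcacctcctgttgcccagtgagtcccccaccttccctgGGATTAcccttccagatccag
Gucy2e, chr11:69237023-69237272, minus strand: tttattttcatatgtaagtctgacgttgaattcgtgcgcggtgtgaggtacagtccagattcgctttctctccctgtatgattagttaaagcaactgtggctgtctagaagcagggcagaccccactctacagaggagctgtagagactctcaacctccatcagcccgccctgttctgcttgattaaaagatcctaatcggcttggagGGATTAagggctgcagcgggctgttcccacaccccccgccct
Ifit1, chr19:34640639-34640888, plus strand: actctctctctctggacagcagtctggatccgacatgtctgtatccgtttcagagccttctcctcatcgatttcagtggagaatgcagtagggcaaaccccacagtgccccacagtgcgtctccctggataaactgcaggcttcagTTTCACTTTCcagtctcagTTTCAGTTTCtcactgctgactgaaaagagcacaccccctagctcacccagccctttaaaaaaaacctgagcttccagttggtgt
Ifit3, chr19:34583279-34583528, plus strand: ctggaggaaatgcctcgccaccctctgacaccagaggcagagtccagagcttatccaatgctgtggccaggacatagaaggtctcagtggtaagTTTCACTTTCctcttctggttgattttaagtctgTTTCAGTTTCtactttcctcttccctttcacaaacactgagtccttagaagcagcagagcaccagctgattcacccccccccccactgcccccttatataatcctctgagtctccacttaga

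The match in Opn1sw began 203 bases before the start, those in Crx 94 and 21 bases before it, and that in Gucy2e 42 bases before it. Both matches lay at 104 and 85 bases in Ifit1 and at 156 and 122 bases in Ifit3. No match to one motif overlapped a match to another in these 5 windows. TAGGTCA was in 2.23% of the 32851 promoter windows of this length, and among 7 cone phototransduction genes with a window it was in Opn1sw alone. TAATCC was in 6.25% of all windows. It was in at least 1 window of 6 of 11 rod phototransduction genes (54.5%): Cnga1, Cngb1, Gngt1, Guca1a, Gucy2e and Sag. By the same count it was in 5 of 15 photoreceptor transcription factors (33.3%) and 5 of 19 outer segment genes (26.3%). It was also in 3 of 17 interferon-stimulated genes (17.6%) and 1 of 7 cone genes (14.3%). The interferon response core was in 2.98% of all windows. At least 1 window matched in 7 of 17 genes of the interferon-stimulated list (41.2%): Bst2, Gbp2, Ifit1, Ifit3, Oas1a, Rsad2 and Stat2. The list shares count genes with a match in any of their windows, so they are not on the same footing as the shares of all windows. These are matches of letters, and no binding was measured.

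Of 18193 genes measured, 1316 (7.23%) differed at least 2-fold at an adjusted p under 0.05 between P28 Rorb-/-;CrxpNrl and P28 +/+, 829 of them higher (4.56%) and 487 lower (2.68%). With no fold requirement, 7264 genes (39.9%) were called, 3834 higher (21.1%) and 3430 lower (18.9%), and members of the gene lists below are called in that way. Those shares are the background of every list count against P28 +/+ below. The groups did not overlap for 17.4% of genes with every mutant higher and for 16% with every mutant lower. The median difference of all genes was -0.02. Photoreceptor, outer segment, amacrine and horizontal cell genes were mostly lower, and genes of Müller glia, gliosis, microglia, bipolar cells and the interferon response mostly higher. Values of Rorb-/-, +/+;CrxpNrl and Rorb-/-;CrxpNrl mice at P28 stand side by side, since comparisons among them share arrays. As a background, 1012 genes (5.56%) differed at least 2-fold between P28 Rorb-/- and P28 +/+, 21 (0.115%) between P28 +/+;CrxpNrl and P28 +/+, and 258 (1.42%) between P28 Rorb-/-;CrxpNrl and P28 Rorb-/-.

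**Figure D1:**
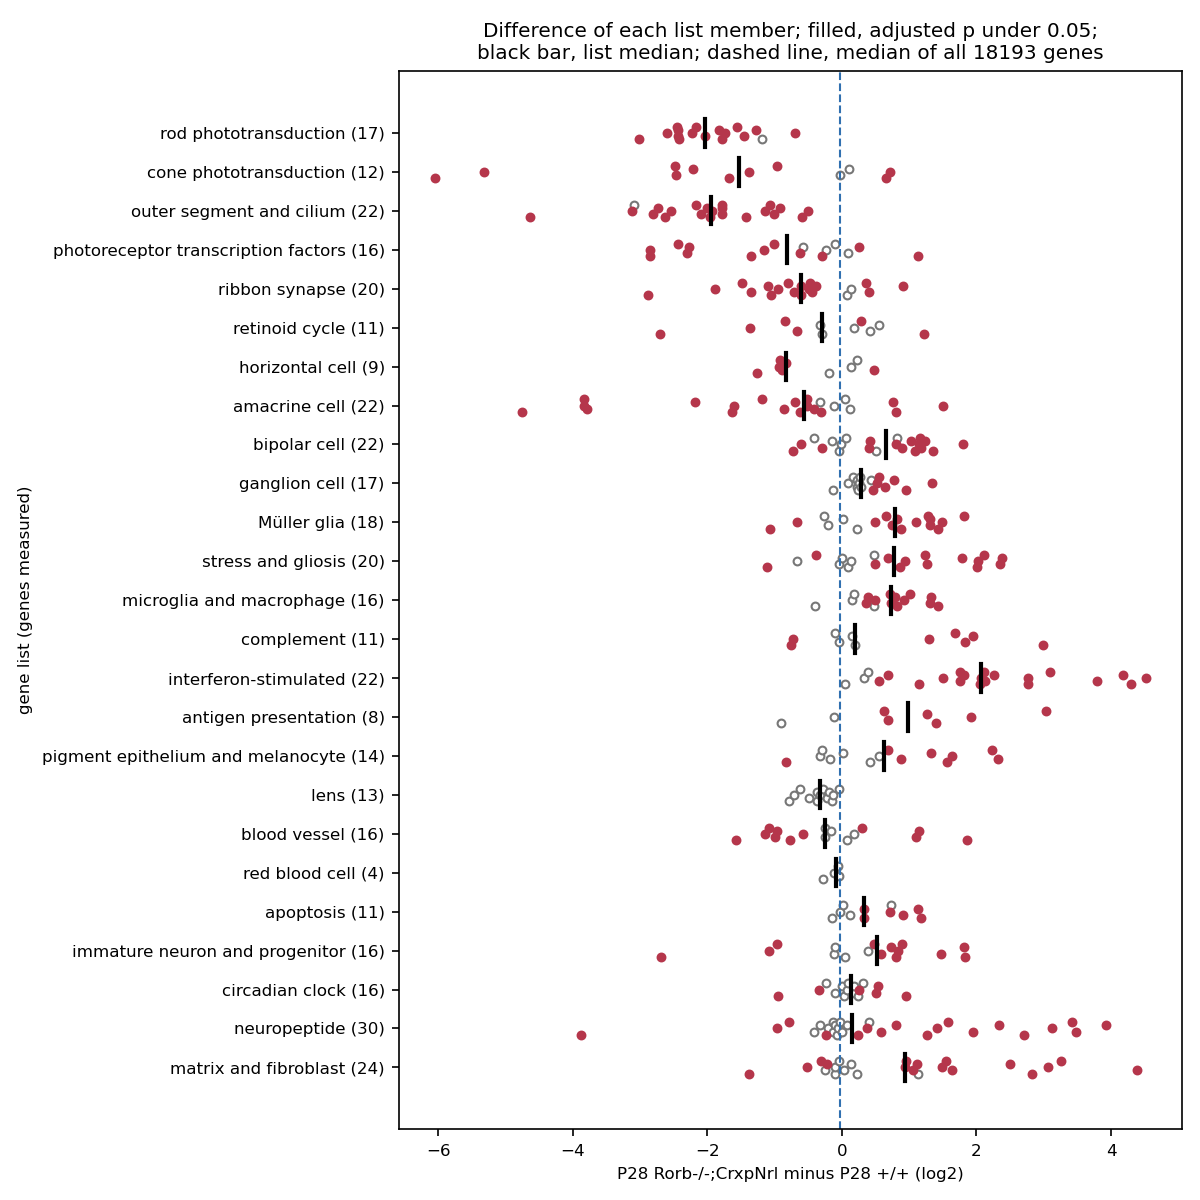
Difference of every measured member of each gene list between P28 Rorb-/-;CrxpNrl and P28 +/+ (horizontal axis, log2), by list with its number of measured genes (vertical axis). Filled points passed an adjusted p under 0.05, black bars are list medians and the dashed line is the median of all genes, -0.02; the rod list lies wholly to the left (median -2.03) and the interferon list wholly to the right (median 2.07).

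The targeted gene was lower in every Rorb-/-;CrxpNrl mouse. Rorb measured 8.15, 8.58, 8.27 and 8.27 in Rorb-/-;CrxpNrl mice 1 to 4, and 10.68, 10.39, 10.81 and 10.45 in +/+ mice 1 to 4. The groups did not overlap, and Rorb was 4.81-fold lower (difference -2.27, SE 0.19, adjusted p = 1.3e-10), with all 3 of its probe sets lower. In Rorb-/- mice without the transgene Rorb lay between 9.09 and 9.98, above each Rorb-/-;CrxpNrl mouse. Where its probes lie relative to the deletion was not tested.

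Nrl was below its +/+ level in the transgenic mutants, and its level varied from mouse to mouse. Nrl measured 11.63, 11.86, 9.39 and 10.44 in Rorb-/-;CrxpNrl mice 1 to 4 against 13.36, 13.09, 13.32 and 13.28 in +/+ mice. All 4 mutants lay below all 4 +/+ mice (difference -2.43, SE 0.40, adjusted p = 1.2e-05). Rorb-/- mice had 9.74, 8.70, 9.72 and 9.97, so Rorb-/-;CrxpNrl mice 1, 2 and 4 lay above all of them and mouse 3 lay among them. The difference between these groups was 1.30 (SE 0.40, adjusted p = 0.021), and it missed the threshold when Rorb-/- mouse 2 (1.02, adjusted p = 0.0996) or Rorb-/-;CrxpNrl mouse 1 (1.03, adjusted p = 0.076) or mouse 2 (0.95, adjusted p = 0.11) was left out, or when the fit held these 2 groups alone (adjusted p = 0.14). In +/+;CrxpNrl retinas Nrl was 13.32, 12.99 and 13.37, values that overlapped those of +/+. Whether its probes also read the transgene's transcript was not tested.

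**Figure D2:**
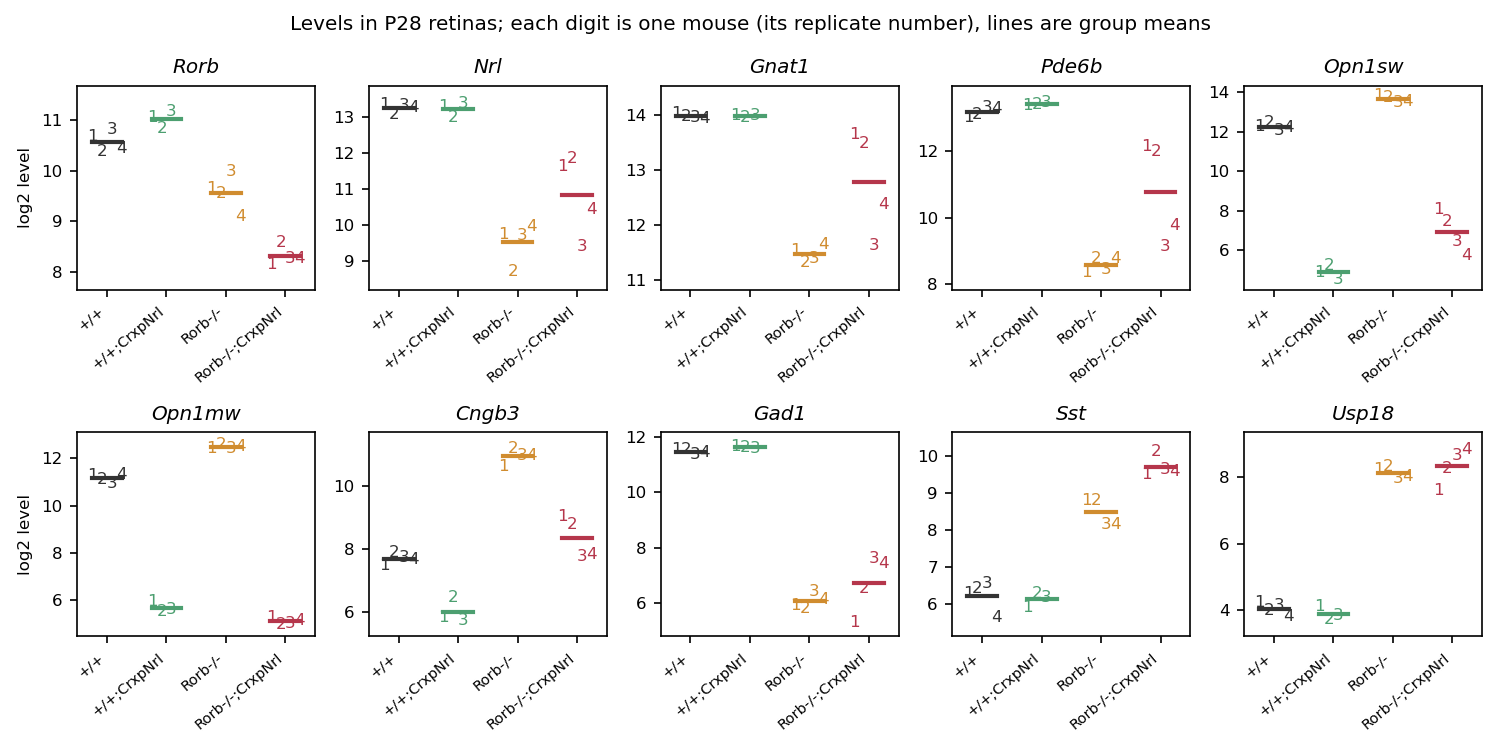
Level of 10 genes (log2) in each P28 mouse of 4 genotypes; digits are the replicate numbers of the mice and lines are group means. Rod genes Gnat1 and Pde6b spread over a wide range in Rorb-/-;CrxpNrl mice, both opsins Opn1sw and Opn1mw lie far below +/+ in mice with the transgene, and Usp18 is high in both genotypes that lack Rorb.

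Rod phototransduction genes fell together. Of 17 measured members, 16 fell and none rose, with a median of -2.03, and 15 of the falls were at least 2-fold. Pde6b, a catalytic subunit of the rod phosphodiesterase, measured 12.16, 11.998, 9.14 and 9.76 in Rorb-/-;CrxpNrl mice 1 to 4 and 13.04, 13.10, 13.32 and 13.31 in +/+ mice. Every mutant lay below every +/+ mouse, and mutants 3 and 4 lay more than 2 units below mutants 1 and 2 (difference -2.43, SE 0.54, adjusted p = 0.0005). Cnga1, which encodes part of the channel that cyclic GMP opens in rods, likewise had its 2 lowest values in mutants 3 and 4, with 10.86, 10.93, 8.13 and 9.0 against 12.13, 12.04, 12.25 and 12.31 (difference -2.45, SE 0.44, adjusted p = 3.6e-05). Guca1b, a calcium-binding activator of guanylate cyclase, showed the largest fall of the list, at 11.41, 11.11, 8.90 and 9.79 against 13.20 to 13.39 (difference -3.01, SE 0.36, adjusted p = 7.3e-08).

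Gnat1, the alpha subunit of rod transducin, was the single list member not called. It measured 13.66, 13.48, 11.63 and 12.38 in mutants against 14.03, 13.98, 13.96 and 13.94 in +/+, so the groups did not overlap, but the difference of -1.19 (SE 0.51) had an adjusted p of 0.062. It was past the threshold with the 2 groups fitted alone (adjusted p = 0.034). Without Rorb-/-;CrxpNrl mouse 1 it was -1.48 (adjusted p = 0.027), and without mouse 2 it was -1.42 (adjusted p = 0.039). Sag, rod arrestin, fell by 0.70 (SE 0.17, adjusted p = 0.0013), by 0.40 without mouse 3 (adjusted p = 0.0034), and it missed the threshold when these 2 groups were fitted alone (adjusted p = 0.077). The +/+ values of Gnat1 and Sag lay close to the maximum of the arrays, where differences may be compressed. Rcvrn, the calcium sensor recoverin, fell by 1.27 (SE 0.27, adjusted p = 0.00032), and by 0.82 without mouse 3 (adjusted p = 0.00078). Whole retinas were measured, so fewer rods and less RNA per rod cannot be told apart. For every cell type below, a changed share of the retina's RNA and a change within its cells cannot be told apart either.

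Against Rorb-/- mice without the transgene, rod genes of the mutants with it went both ways, with 5 of 17 higher and 4 lower (background 11.7% higher and 7.47% lower) and a median of -0.30. Pde6b lay between 8.34 and 8.77 in Rorb-/-, below all 4 Rorb-/-;CrxpNrl mice (difference 2.18, SE 0.54, adjusted p = 0.0038). Cnga1 lay between 7.57 and 8.39 there, below 3 of the 4 (difference 1.85, SE 0.44, adjusted p = 0.0026). Rcvrn, by contrast, lay between 12.42 and 12.79 in Rorb-/-, below mutants 1 and 2 and above mutants 3 and 4 (difference -0.43, SE 0.27, adjusted p = 0.31). With the 2 groups fitted alone, Pde6b (adjusted p = 0.054) and Cnga1 (adjusted p = 0.071) missed the threshold.

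Averaged over the list, the rod gene level was 11.06, 10.60, 8.77 and 9.45 in Rorb-/-;CrxpNrl mice 1 to 4, against 11.861 to 11.999 in +/+, 11.97 to 12.02 in +/+;CrxpNrl and 9.69 to 9.90 in Rorb-/-. Mice 1 and 2 thus lay between the Rorb-/- and the +/+ mice, and mice 3 and 4 below all Rorb-/- mice. Mouse 3, with the lowest rod mean, had the highest mean of the ganglion cell list, 8.45, and mouse 1, with the highest rod mean, had the lowest, 7.66. What sets these mice apart was not tested. The sex-linked genes Xist and Eif2s3y were each high in 2 of 4 mice of both P28 groups, a count per group that does not tell how sex fell among mutants 1 to 4.

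**Figure D3:**
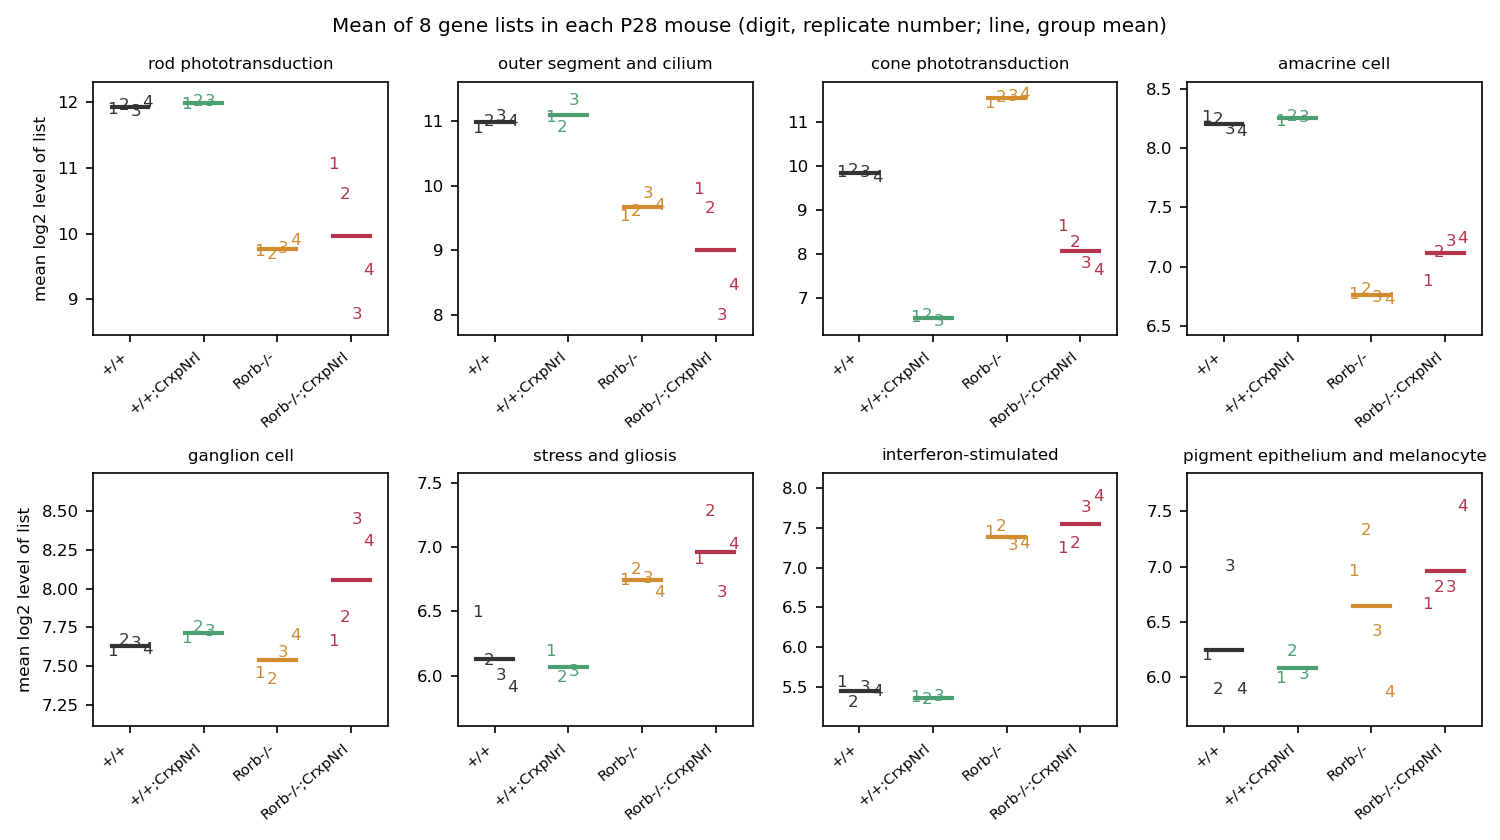
Mean log2 level of 8 gene lists in each P28 mouse; digits are replicate numbers and lines are group means. The rod, outer segment and cone means of Rorb-/-;CrxpNrl mice run from mouse 1 at the top (11.06, 9.93 and 8.62) down to mice 3 and 4, while the interferon means of all 4 (7.24 to 7.88) lie above every +/+ mouse.

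Genes of the outer segment and the connecting cilium also fell. Of 22 measured members, 21 fell and none rose, with a median of -1.95. Fscn2, a photoreceptor fascin that bundles actin, measured 5.35, 5.15, 4.14 and 4.09 in Rorb-/-;CrxpNrl against 9.21, 9.16, 9.42 and 9.50 in +/+, every mutant more than 3 units below every +/+ mouse (difference -4.64, SE 0.22, adjusted p = 7.4e-16). Rom1, a tetraspanin of the disc rim, measured 12.36, 12.07, 10.12 and 10.69 against 13.34, 13.26, 13.18 and 13.31 (difference -1.96, SE 0.29, adjusted p = 2.3e-06). Rp1, a microtubule-associated protein of the axoneme, fell by 2.09 (SE 0.35, adjusted p = 1.4e-05). Tulp1, which takes part in protein transport to the outer segment, measured 12.28, 11.84, 9.90 and 10.38 against 12.84, 12.84, 12.84 and 12.98 (difference -1.77, SE 0.28, adjusted p = 5.8e-06). In Rorb-/- retinas Tulp1 lay between 12.42 and 12.80, above every Rorb-/-;CrxpNrl mouse (difference from them -1.51, SE 0.28, adjusted p = 0.00022; with the 2 groups fitted alone, adjusted p = 0.067). Over the list, 12 of 22 members were lower with the transgene than without it in retinas that lack Rorb, and 1 was higher. Of all genes, 7.47% were lower and 11.7% higher in that comparison.

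Prph2, the peripherin of the disc rim, was the member not called. It measured 5.87, 4.42, 4.17 and 4.36 in Rorb-/-;CrxpNrl and 6.66, 8.05, 8.86 and 7.59 in +/+, groups that did not overlap (difference -3.09, SE 1.29, adjusted p = 0.057). That SE pools the spread of all groups of the series, Rorb-/- included, and does not measure the spread of this pair alone. Without Rorb-/-;CrxpNrl mouse 1 the difference was -3.47 (adjusted p = 0.048), and with the 2 groups fitted alone the adjusted p was 0.00079. Rorb-/- mouse 3, at 11.25, stood far above the other Rorb-/- mice for this gene (5.07 to 5.59).

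Both cone opsins were far below +/+, and several other cone genes lay between their Rorb-/- and +/+;CrxpNrl levels. Opn1mw, the medium-wavelength opsin, measured 5.28, 4.99, 5.00 and 5.17 in Rorb-/-;CrxpNrl against 11.28, 11.12, 10.93 and 11.30 in +/+ (66.1-fold lower, difference -6.05, SE 0.25, adjusted p = 6.8e-17). Opn1sw, the short-wavelength opsin, measured 8.06, 7.47, 6.42 and 5.74 against 12.26, 12.44, 12.03 and 12.22 (39.8-fold lower, difference -5.31, SE 0.56, adjusted p = 8e-09). The other probe set of Opn1sw fell by 3.16. Neither opsin overlapped between the groups, and the spread among mutants was wider for Opn1sw.

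Without the transgene, Rorb-/- retinas had 12.41 to 12.59 of Opn1mw and 13.46 to 13.81 of Opn1sw, above every +/+ mouse. With the transgene on a +/+ background they had 5.55 to 5.94 and 4.51 to 5.24. All 4 Rorb-/-;CrxpNrl mice lay below the +/+;CrxpNrl mice for Opn1mw, and above them for Opn1sw.

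Of 12 cone phototransduction genes measured, 8 fell and 2 rose against +/+, with a median of -1.52. Arr3, cone arrestin, measured 9.82, 9.04, 8.09 and 8.0 against 11.12, 11.28, 11.20 and 11.23 (difference -2.47, SE 0.43, adjusted p = 2.9e-05), and a dimmer probe set of it fell by 1.47. Gnat2, the alpha subunit of cone transducin, was even across mutants at 10.001, 9.81, 10.02 and 9.76 against 11.23, 11.29, 11.30 and 11.26 (difference -1.37, SE 0.19, adjusted p = 1.2e-06). In both genes every mutant lay below every +/+ mouse, and also between the Rorb-/- mice (Arr3 13.01 to 13.35, Gnat2 13.20 to 13.35) and the +/+;CrxpNrl mice (Arr3 4.33 to 4.48, Gnat2 7.71 to 7.95).

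The 2 cone genes that rose were Slc24a2, a cone sodium, calcium and potassium exchanger, by 0.71 (SE 0.23, adjusted p = 0.013) and Cngb3, a subunit of the cone channel, by 0.65 (SE 0.22, adjusted p = 0.02). The call of Slc24a2 was lost without +/+ mouse 4 (0.53, adjusted p = 0.082), over the mean of its probe sets (0.38, adjusted p = 0.089; its other probe set differed by 0.05) and with the lens and pigment means of each array as covariates (0.67, adjusted p = 0.098). Cngb3 measured 9.03, 8.75, 7.76 and 7.80 against 7.47, 7.88, 7.73 and 7.65, so the groups overlapped. Its call was lost without +/+ mouse 1 (0.58, adjusted p = 0.062), without mutant 1 (0.42, adjusted p = 0.12) and without mutant 2 (0.51, adjusted p = 0.088), with array weights (0.38, adjusted p = 0.18), with the groups fitted alone (adjusted p = 0.091) and with those covariates (0.62, adjusted p = 0.11), under which no cone gene rose. Gngt2 (difference -0.03, adjusted p = 0.94) and Gnb3 (difference 0.10, adjusted p = 0.32), further transducin subunits, did not pass; Gnb3 was at 0.01 without mutant 1, and Gngt2 changed sign with the mouse left out, from -0.32 without mutant 1 to 0.15 without mutant 4. Against Rorb-/-, 11 of the 12 cone genes were lower and none higher (background 7.47% lower and 11.7% higher).

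Of 16 transcription factors of photoreceptors measured, Rorb and Nrl included, 10 fell and 2 rose, with a median of -0.81. Crx measured 11.52, 11.58, 10.28 and 10.54 in Rorb-/-;CrxpNrl against 12.35, 12.34, 12.29 and 12.34 in +/+, with no overlap (difference -1.35, SE 0.16, adjusted p = 9.2e-08), and 12.06 to 12.13 in Rorb-/-. Mef2c, which works with Nrl and Crx on rod genes, measured 8.18, 8.04, 5.93 and 6.73 against 10.14, 10.19, 10.05 and 9.93 (difference -2.86, SE 0.33, adjusted p = 4.7e-08). Samd7, a rod-enriched silencing factor, measured 8.80, 8.35, 5.62 and 7.27 against 9.63, 9.48, 10.11 and 10.06 (difference -2.31, SE 0.37, adjusted p = 8.4e-06). In these 3 genes mutant 3 was the lowest of the 4.

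Rxrg, a nuclear receptor of cones and some ganglion cells, went the other way. It measured 7.87, 7.45, 7.67 and 7.45 against 6.31, 6.74, 6.38 and 6.47, each mutant above each +/+ mouse (difference 1.13, SE 0.13, adjusted p = 4.6e-08). Thrb, the thyroid hormone receptor that Opn1mw depends on, fell by 1.0 (SE 0.19, adjusted p = 7.5e-05). Otx2, upstream of Crx, rose by 0.25 (SE 0.09, adjusted p = 0.028), with overlapping groups, and its call was lost without +/+ mouse 3 (0.21) or mouse 4 (0.22), without mutant 1 (0.17) or mutant 2 (0.19), with all arrays shifted to the same median (adjusted p = 0.058), with array weights (adjusted p = 0.15) and with the 2 groups fitted alone (adjusted p = 0.14).

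The genes of the photoreceptor ribbon synapse were lower in most cases. Of 20 measured members 15 fell and 3 rose, with a median of -0.61. Cabp4, a calcium-binding regulator of the presynaptic calcium channel, measured 8.93, 7.99, 6.33 and 7.10 against 10.49, 10.40, 10.40 and 10.59 (difference -2.88, SE 0.28, adjusted p = 2.3e-09). Rims1, a scaffold of the active zone, had its lowest value in mutant 1 instead, with 7.79, 8.21, 8.57 and 8.35 against 9.53, 9.52, 9.63 and 9.62 (difference -1.34, SE 0.12, adjusted p = 3.5e-10). Of 11 genes of the retinoid cycle 4 fell and 2 rose (background 18.9% lower and 21.1% higher), with a median of -0.30 that turned to 0.27 without +/+ mouse 3. Rdh12, a photoreceptor retinol dehydrogenase, fell by 2.70 (SE 0.29, adjusted p = 1.3e-08).

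Amacrine cell genes fell, some of them to the lowest range of the array. Of 22 measured members 15 fell and 3 rose, with a median of -0.57. Gad1, an enzyme that makes the transmitter GABA, measured 5.31, 6.53, 7.6 and 7.45 in Rorb-/-;CrxpNrl against 11.55, 11.54, 11.36 and 11.44 in +/+ (26.9-fold lower, difference -4.75, SE 0.29, adjusted p = 2.1e-13). No mutant came near a +/+ mouse, and mutant 1, the highest for rod genes, was the lowest for Gad1. The transcription factors Tfap2a, Tfap2b and Tfap2c, which shape amacrine and horizontal cells, fell by 3.83, 3.83 and 3.79, with SE of 0.13 to 0.14 and adjusted p of at most 6.5e-18. Other probe sets fell less, by 1.64 for Tfap2a and by 1.71 and 1.94 for Tfap2c, and the mutant means of Tfap2c lay near the lower quartile of the arrays. Slc6a9, the glycine transporter of glycinergic amacrine cells, measured 8.51, 8.54, 8.29 and 8.11 against 10.12, 10.11, 9.996 and 9.63 (difference -1.60, SE 0.12, adjusted p = 2.3e-11).

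Gad2, the other GABA-making enzyme, was higher. It measured 8.97, 9.22, 9.34 and 9.57 in Rorb-/-;CrxpNrl against 7.91, 7.72, 7.69 and 7.78 in +/+, with no overlap (2.84-fold higher, difference 1.503, SE 0.10, adjusted p = 6e-13). Rorb-/- mice lay between, at 8.40 to 8.66. Tac1, the precursor of substance P, measured 9.89, 10.05, 10.57 and 10.57 against 9.64, 9.47, 9.34 and 9.42 (difference 0.80, SE 0.12, adjusted p = 2.6e-06), but its other probe set differed by -0.01. Neurod4, a factor of amacrine and bipolar precursors, rose by 0.75 (SE 0.07, adjusted p = 9.5e-10), the largest difference of its 3 probe sets, the smallest being 0.16. Against Rorb-/- mice, 7 of the 22 amacrine genes were higher and none lower (background 11.7% higher and 7.47% lower).

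Of 9 horizontal cell genes measured, 5 fell and 1 rose, with a median of -0.83. Calb1, the calcium buffer calbindin that marks horizontal and some amacrine cells, measured 8.85, 9.08, 9.68 and 9.52 against 10.30, 10.65, 10.58 and 10.66, without overlap (difference -1.26, SE 0.15, adjusted p = 7.9e-08). Gja10, a gap junction protein of horizontal cells, measured 4.38, 3.98, 4.38 and 4.36 against 5.36, 5.31, 5.15 and 4.94 (difference -0.92, SE 0.11, adjusted p = 1.3e-07). Both groups of Gja10 values lay near the low end of the array.

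Bipolar cells relay photoreceptor signals, and 12 of their 22 measured genes rose while 3 fell, with a median of 0.65. Vsx1, a transcription factor of cone bipolar cells, measured 8.48, 8.37, 8.53 and 8.69 against 7.36, 7.13, 7.04 and 7.14 (difference 1.35, SE 0.13, adjusted p = 1.8e-09). Scgn, the calcium-binding protein secretagogin of cone bipolar cells, measured 11.01, 10.91, 11.20 and 11.14 against 9.71, 9.85, 9.81 and 9.96 (difference 1.23, SE 0.09, adjusted p = 3.5e-12). Neither gene overlapped between the groups. Ganglion cells send the retina's output to the brain, and 7 of their 17 measured genes rose and none fell, with a median of 0.29, but these moved with the mutant left out. Without mutant 1, 10 rose (median 0.54), without mutant 2, 11 rose (median 0.46), and without mutant 3, 5 rose (median 0.20). Against Rorb-/- mice 14 of the 17 were higher and 1 lower (background 11.7% higher and 7.47% lower). That count was not repeated with a mouse left out. At P14, 2 of the 17 rose and 4 fell against +/+ (background 16.7% higher and 13.3% lower). Gap43, a growth cone protein, rose by 1.34 (SE 0.13, adjusted p = 2.1e-09), and Rbpms, which marks ganglion cells, measured 7.18, 7.60, 8.22 and 8.15 against 6.55, 7.01, 6.81 and 6.93 (difference 0.96, SE 0.18, adjusted p = 8.2e-05).

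Most listed genes of Müller glia, the radial glia of the retina, were higher in the RNA of Rorb-/-;CrxpNrl retinas. Of 18 measured members 12 rose and 2 fell, with a median of 0.78. Apoe, which carries lipids, measured 13.43, 13.49, 13.34 and 13.56 against 11.82, 11.53, 11.59 and 11.59, tight within both groups (3.54-fold higher, difference 1.82, SE 0.07, adjusted p = 4.8e-18). Sox9, a glial transcription factor, rose by 1.31 (SE 0.12, adjusted p = 4.6e-10). Of 20 genes of stress and gliosis 12 rose and 2 fell, also with a median of 0.78. Gfap, the intermediate filament of reactive glia, measured 8.58, 9.17, 7.79 and 9.16 against 6.89, 6.42, 6.13 and 5.87 (5.09-fold higher, difference 2.35, SE 0.23, adjusted p = 2.3e-09), and 7.01 to 7.49 in Rorb-/- mice, which lay below all 4. Cebpd, a transcription factor of the acute phase response, rose by 2.37 (SE 0.16, adjusted p = 1.2e-12), and Cp, the copper oxidase ceruloplasmin, by 2.11 (SE 0.09, adjusted p = 2.6e-16). The other probe set of Cebpd differed by 0.38. Averaged over all probe sets of each gene, Cebpd rose by 1.38, Sox9 by 0.79, and the median of the stress and gliosis list was 0.51.

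Genes of microglia and macrophages were also higher, with 12 of 16 up and none down and a median of 0.72. Csf1r, the receptor they depend on, measured 8.94, 9.19, 9.01 and 9.40 against 7.79, 7.55, 7.72 and 7.75, without overlap (difference 1.43, SE 0.11, adjusted p = 2.9e-11). Averaged over all probe sets of each gene, Csf1r rose by 0.91 and the list's median was 0.48. Of 11 complement genes 5 rose and 2 fell, among them C1qa by 1.83 (SE 0.13, adjusted p = 2.6e-12) and the C1 inhibitor Serping1 by 2.98 (SE 0.18, adjusted p = 1.5e-13), both upward. In Rorb-/- mice C1qa was 7.93 to 8.23, overlapping the Rorb-/-;CrxpNrl mice, and Serping1 was 8.28 to 8.68, below them (8.92 to 9.67).

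Members of the list of interferon-stimulated genes, which cells switch on against virus, were 4 of the 15 largest rises. Of 22 measured members 19 rose and none fell, with a median of 2.07. Ifit1, which binds viral RNA, measured 7.98, 8.46, 8.98 and 8.83 in Rorb-/-;CrxpNrl against 4.73, 4.10, 4.53 and 4.20 in +/+ (18.1-fold higher, difference 4.18, SE 0.53, adjusted p = 2.2e-07). Usp18, which removes ISG15 and dampens interferon signalling, measured 7.61, 8.26, 8.65 and 8.85 against 4.23, 3.99, 4.14 and 3.82 (19.7-fold higher, difference 4.30, SE 0.61, adjusted p = 1.4e-06). Oasl2, a 2'-5' oligoadenylate synthetase-like protein, had the largest rise among the named genes, at 9.57, 9.90, 10.37 and 10.57 against 5.33, 5.64, 5.59 and 5.73 (difference 4.53, SE 0.38, adjusted p = 9.2e-11). In all 3 genes each mutant lay at least 3 units above each +/+ mouse. The +/+ values of Ifit1 and Usp18 lay near the lower quartile of the arrays, so the size of these rises is not well defined.

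Rorb-/- mice without the transgene had 8.01 to 8.77 of Ifit1 and 7.96 to 8.33 of Usp18, and +/+;CrxpNrl mice had 3.87 to 4.23 and 3.72 to 4.11. Between Rorb-/-;CrxpNrl and Rorb-/- mice 1 of the 22 genes was higher and none lower (background 11.7% and 7.47%), with a median difference of 0.18. For Ifit1 that difference was 0.16 (SE 0.53, adjusted p = 0.89), which does not show that the groups are alike. Of 8 genes of antigen presentation 6 rose against +/+ and none fell, with a median of 0.98, and 1 fell when mutant 3 was left out. H2-D1, not called, was lower by 0.90 on the probe set used and higher by 3.74 on another. B2m, the light chain of class I molecules, measured 11.51, 10.81, 11.69 and 12.17 against 8.60, 8.23, 8.57 and 8.64 (8.21-fold higher, difference 3.04, SE 0.27, adjusted p = 3.4e-10).

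The large rises outside the interferon list were of diverse function. Fmod and Prelp, small proteoglycans of the extracellular matrix, rose by 4.38 (SE 0.51, adjusted p = 5.1e-08) and 3.26 (SE 0.13, adjusted p = 4.7e-17). The other probe sets of Fmod rose less, by 2.64 to 3.10. Adcyap1r1, the receptor of the peptide PACAP, rose by 3.51 (SE 0.24, adjusted p = 2.4e-12; 2.16 over the mean of its probe sets), Cxcr4, a chemokine receptor, by 3.36 (SE 0.16, adjusted p = 6.7e-16), and Gpr37l1, a glial receptor, by 3.36 (SE 0.18, adjusted p = 2.1e-14). Ifitm3, which interferon also induces though the list did not hold it, rose by 3.49. Plscr2 and Acot1, an acyl-CoA thioesterase, both rose by 3.22.

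Neuropeptide genes were counted after this pattern had been seen, so their count supports nothing. Of 30 measured, 14 rose and 4 fell, with a median of 0.15. Sst, the precursor of somatostatin, measured 9.51, 10.13, 9.64 and 9.58 in Rorb-/-;CrxpNrl against 6.31, 6.44, 6.57 and 5.65 in +/+ (11.1-fold higher, difference 3.48, SE 0.22, adjusted p = 3.3e-13). Pdyn, the precursor of dynorphin, measured 9.01, 8.43, 9.12 and 9.01 against 4.56, 4.90, 5.30 and 5.09 (15.3-fold higher, difference 3.93, SE 0.29, adjusted p = 7.1e-12). Each mutant lay at least 2 units above each +/+ mouse in both genes. Pnoc, the precursor of nociceptin, rose by 3.42 (SE 0.13, adjusted p = 1.6e-17), and Npy by 1.42 (SE 0.17, adjusted p = 1.1e-07). Sst was 8.16 to 8.81 and Npy 8.01 to 8.86 in Rorb-/- mice, below every Rorb-/-;CrxpNrl mouse (differences 1.24, adjusted p = 0.00014, and 1.34, adjusted p = 2e-06). Of 24 matrix and fibroblast genes, listed likewise after the values were seen, 12 rose and 4 fell, with a median of 0.94 that was 0.62 over the mean of all probe sets and 0.52 with the lens and pigment covariates.

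Nt5e, an ectonucleotidase known as CD73, marks rods and their precursors, and measured 3.93, 3.75, 3.93 and 3.66 against 10.41, 10.53, 10.67 and 10.54 (difference -6.72, SE 0.16, adjusted p = 1.9e-22). The mutant values lay below the lower quartile of the arrays, where little but background may be read, so the size of this fall is not well defined. It was 4.17 to 4.62 in Rorb-/- and 10.40 to 10.60 in +/+;CrxpNrl mice. Its 3 probe sets did not agree in size, the smallest difference being -0.05, and their mean differed by -3.26. Sh2d1a, a signalling adaptor known from lymphocytes, fell by 4.90 (SE 0.20, adjusted p = 4.7e-17), and Tac2, the precursor of neurokinin B, by 3.88 (SE 0.14, adjusted p = 6.5e-18). Pdzph1 fell by 4.44 (SE 0.53, adjusted p = 6.5e-08). Spc25, a kinetochore protein, fell by 3.92 (SE 0.41, adjusted p = 7.4e-09), but its other probe set fell by 1.67. C1ql2, a secreted synaptic protein, Qrfpr, a peptide receptor, and Hcls1, which binds actin, fell by 3.44, 3.44 and 3.30.

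**Figure D4:**
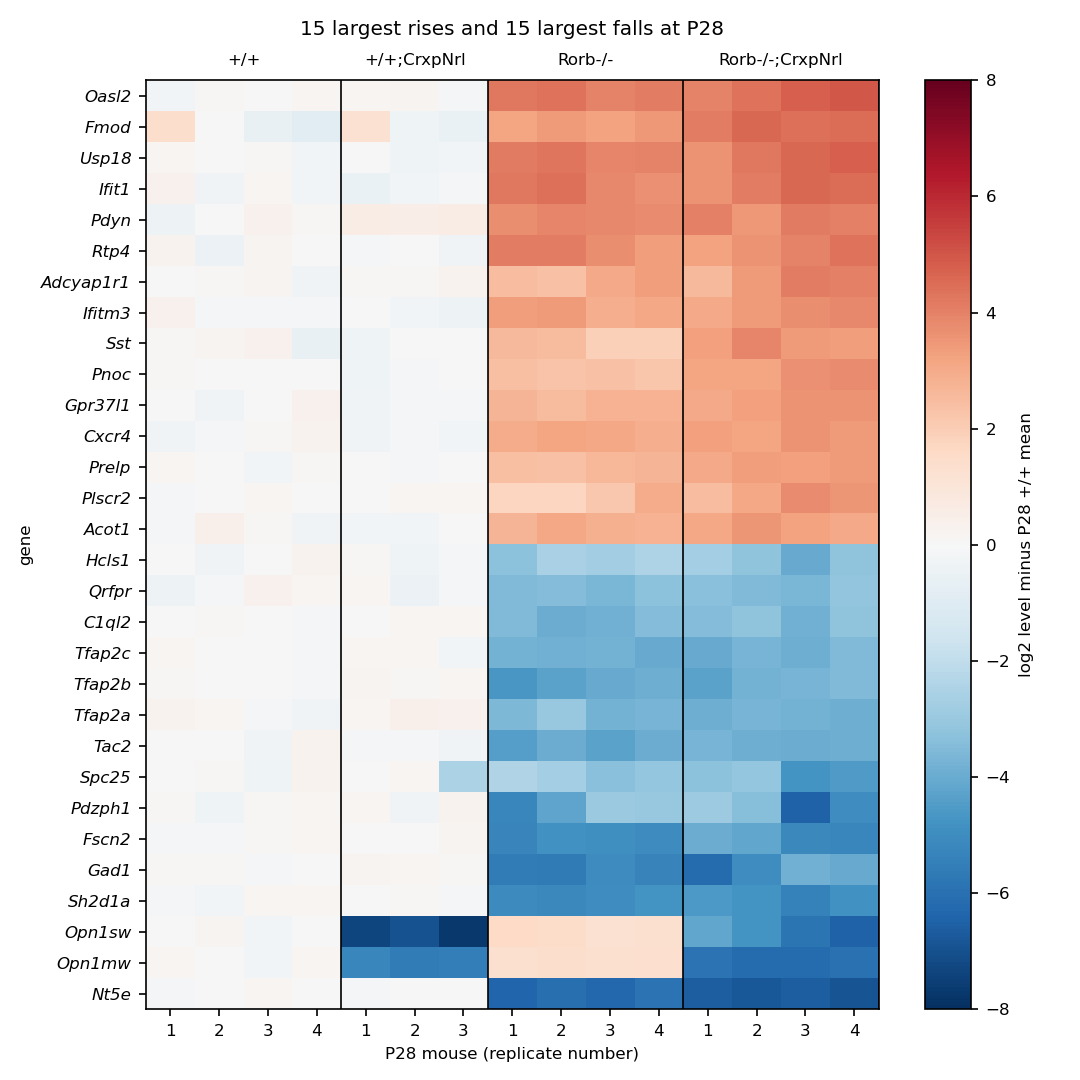
Level of the 15 largest rises and 15 largest falls among named genes (rows) in each P28 mouse (columns, 4 genotypes), as log2 difference from the +/+ mean (colour, red higher and blue lower). The opsins Opn1sw and Opn1mw are above +/+ in Rorb-/- mice and far below it in both genotypes with the transgene; all colours share the +/+ mean, by which the rows were also chosen, so a like colour in Rorb-/- and Rorb-/-;CrxpNrl mice is not separate evidence.

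Genes of neighbouring tissues were uneven between mice. The mean of 13 lens genes was 6.79, 6.14, 10.83 and 7.80 in +/+ mice 1 to 4 and 7.68, 6.47, 8.10 and 7.86 in Rorb-/-;CrxpNrl mice, and none of the 13 was called. Of 14 pigment epithelium and melanocyte genes 7 rose and 1 fell, with a median of 0.62, and 4 rose when +/+ mouse 2, +/+ mouse 4 or mutant 4 was left out. The list's mean was 6.20, 5.89, 7.0 and 5.89 in +/+ mice and 6.66, 6.81, 6.82 and 7.55 in Rorb-/-;CrxpNrl mice, so +/+ mouse 3 lay among the mutants. Dct, an enzyme of melanin synthesis, measured 8.85, 8.86, 8.53 and 9.77 against 6.63, 6.87, 7.24 and 6.0 (4.99-fold higher, difference 2.32, SE 0.36, adjusted p = 4.9e-06). Pmel, the scaffold of melanosomes, rose by 2.23 (SE 0.28, adjusted p = 1.5e-07). Ttr, a secreted carrier of thyroid hormone and retinol, measured 10.69, 11.37, 11.37 and 12.44 against 10.12, 8.92, 12.001 and 9.51, which overlapped (difference 1.33, SE 0.51, adjusted p = 0.039). The call for Ttr was lost on leaving out any one mouse of either group except +/+ mouse 3 and Rorb-/-;CrxpNrl mouse 1 (differences 0.92 to 1.37, adjusted p 0.057 to 0.18), and with the 2 groups fitted alone (adjusted p = 0.12). The visual cycle isomerase Rpe65, a defining gene of the pigment epithelium, differed by -0.30 (adjusted p = 0.64), and by 0.27 without +/+ mouse 3. With the lens and pigment means of each array as covariates 1222 genes differed at least 2-fold, 4 pigment genes rose and 3 fell, Ttr was at 0.02 (adjusted p = 0.97), Dct at 1.39 and Rpe65 at -1.52 (adjusted p = 2.7e-05). Since the pigment mean is made of these same genes, a list median near 0 (-0.06) and members on both sides of it follow from the covariate and say nothing about the list.

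Of 16 blood vessel genes 4 rose and 7 fell (background 21.1% higher and 18.9% lower), with a median of -0.25. Kdr, a VEGF receptor also made by retinal neurons and glia, measured 10.35, 10.22, 10.33 and 10.68 against 8.44, 8.39, 8.77 and 8.56 (difference 1.86, SE 0.12, adjusted p = 7.5e-13). Abcc9, a channel subunit of pericytes, measured 5.52, 5.61, 5.39 and 5.43 against 7.23, 7.12, 6.83 and 7.08 (difference -1.58, SE 0.11, adjusted p = 1.5e-12). Neither gene overlapped, and they moved in opposite directions. None of 4 red blood cell genes was called. Of 11 apoptosis genes 6 rose and none fell (median 0.33), and of 16 genes of immature neurons and progenitors 9 rose and 3 fell (median 0.53), with Notch1 up by 1.83 (SE 0.13, adjusted p = 5.3e-12) and the neuronal factor Nhlh2 down by 2.69 (SE 0.14, adjusted p = 4.5e-15). Of 16 circadian clock genes 4 rose and 2 fell, with a median of 0.14, not far from the shares of all genes (21.1% higher and 18.9% lower).

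At P14, in other mice, the same pair of genotypes differed at least 2-fold in 787 genes (4.33%), 395 higher and 392 lower. Of these, 511 differed in the same direction at P28, 38.8% of the P28 genes and 64.9% of the P14 genes, and 8 differed in opposite directions. The difference between the ages was itself past the threshold, at 2-fold or more, for 466 genes (2.56%), 347 of them more positive at P28 (1.91%) and 119 more negative (0.654%).

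Fewer rod genes were called at P14, where 8 of 17 rod genes fell and none rose (background 13.3% lower), with a median of -0.98, and 4 of the 17 had a significantly more negative difference at P28 (6.67% of all genes did). The mean of this list ran from 8.77 to 11.06 in the P28 mutants, with mice 3 and 4 lowest, and from 10.27 to 11.02 in the P14 mutants. Whether the changes with age hold without both P28 mutants 3 and 4 was not tested. Gucy2e, the guanylate cyclase of photoreceptors, differed by -0.39 at P14 (adjusted p = 0.2) and by -1.74 at P28 (adjusted p = 2.4e-07), a change of -1.34 (SE 0.31, adjusted p = 0.0041). Crx went from -0.30 (adjusted p = 0.18) to -1.35, a change of -1.05 (SE 0.23, adjusted p = 0.0024), and Fscn2 from -3.18 to -4.64, a change of -1.46 (SE 0.31, adjusted p = 0.0018). Of 22 outer segment genes 10 had a more negative difference at P28 and none a more positive one. Samd7 was among the 5 largest such changes, from -0.35 (adjusted p = 0.53) to -2.31, a change of -1.95 (SE 0.52, adjusted p = 0.011), which missed the threshold with the compared groups fitted alone (adjusted p = 0.062).

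Interferon-stimulated genes were called in 6 of 22 cases at P14, all higher (background 16.7% higher), and 14 of the 22 had a significantly more positive difference at P28 (8.85% of all genes did). Ifit1 went from 0.38 (adjusted p = 0.65) to 4.18, a change of 3.80 (SE 0.75, adjusted p = 0.00099), and Usp18 from 1.03 (adjusted p = 0.23) to 4.30, a change of 3.27 (SE 0.87, adjusted p = 0.011). Of 14 pigment genes 10 were lower at P14 (background 13.3% lower), none was higher, and 11 had a more positive difference at P28. Both genotypes moved: the mean of this list was 7.51 at P14 and 6.24 at P28 in +/+, and 6.02 and 6.96 in Rorb-/-;CrxpNrl. These genes of neighbouring tissue were uneven between mice, and the source of the change was not tested. Dct went from -1.72 (adjusted p = 0.00041) to 2.32, a change of 4.04 (SE 0.51, adjusted p = 6.8e-06), Ttr from -2.52 to 1.33, a change of 3.85 (SE 0.72, adjusted p = 0.00065), and Pmel from -1.11 to 2.23, a change of 3.34 (SE 0.39, adjusted p = 3.6e-06).

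Some amacrine and horizontal genes changed upward with age. Of 22 amacrine genes 18 fell at P14 (background 13.3% lower) and 7 had a more positive difference at P28 (8.85% of all genes did). Gad2 went from 0.25 (adjusted p = 0.049) to 1.503, a change of 1.25 (SE 0.14, adjusted p = 1.4e-06), while Gad1 went from -5.78 to -4.75 (change 1.03, SE 0.41, adjusted p = 0.09). The call for Gad2 at P14 was lost on leaving out any 1 of the 8 P14 mice (differences 0.21 to 0.27). Calb1 went from -2.85 (adjusted p = 1.8e-14) to -1.26, a change of 1.58 (SE 0.21, adjusted p = 1.8e-05). Gfap went from 1.16 to 2.35, a change of 1.19 (SE 0.33, adjusted p = 0.013).

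The largest changes the other way were of Otop3, a proton channel, and Myocd, a coactivator of muscle genes. Otop3 differed by 3.0 at P14 (adjusted p = 1.2e-08) and by 0.45 at P28 (adjusted p = 0.27), a change of -2.54 (SE 0.44, adjusted p = 0.00027). Myocd differed by 3.18 at P14 (adjusted p = 1.2e-10) and by 0.70 at P28 (adjusted p = 0.033), a change of -2.48 (SE 0.37, adjusted p = 5.9e-05). At P28 the single mice of Otop3 had 8.53, 7.32, 5.92 and 6.51 against 6.31, 6.67, 6.44 and 7.05, mutants 1 and 2 above all +/+ mice and mutant 3 below them. Without mutant 1 its P28 difference was -0.03, and without mutant 3 it was 0.84 (adjusted p = 0.019). Myocd's P28 call was lost without +/+ mouse 1 (0.63) or mouse 4 (0.66), and without mutant 1 (0.44) or mutant 2 (0.54), with array weights (0.41), over the mean of its probe sets (0.42), with the groups fitted alone and with the lens and pigment covariates.

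**Figure D5:**
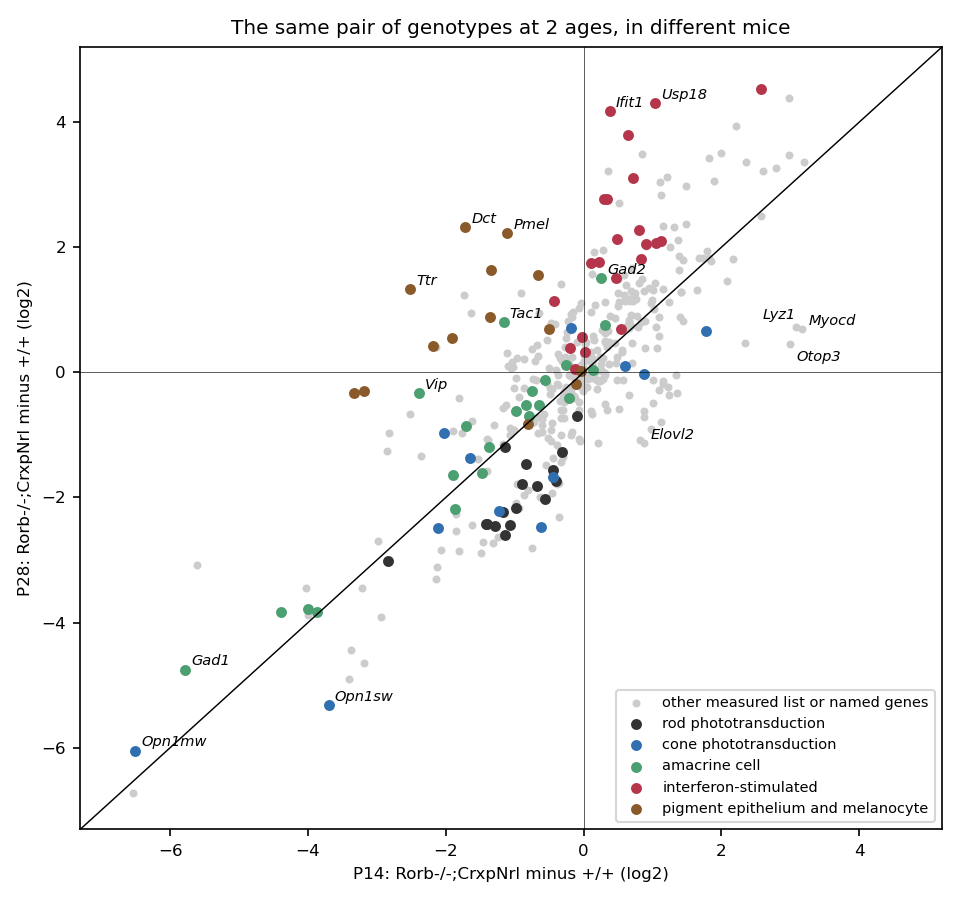
Difference between Rorb-/-;CrxpNrl and +/+ at P14 (horizontal axis, log2) and at P28 (vertical axis, log2) for list members and named genes; 5 lists are coloured and the diagonal marks equal differences. Interferon genes lie above the diagonal (Ifit1 0.38 and 4.18), pigment genes with falls at P14 and rises at P28 lie in the upper left (Dct -1.72 and 2.32), and Opn1mw and Gad1 are low at both ages.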

How the data were processed

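Total RNA (5 ug) of both retinas of each mouse was hybridised to 1 Affymetrix array. The authors deposited log2 values made with RMA, per the submitters' processing notes, whose version is not given in the sources used here; RMA fits all arrays together, so the values of an array depend on the others. Of 45101 probe sets, 34958 had 1 gene symbol, 932 several and 9211 none; 1 probe set per gene, that with the highest mean, gave 18193 genes. Limma 3.58.1 in R 4.3.3 (lmFit, eBayes with trend) fitted 1 mean per group over all 31 arrays, and p-values were Benjamini-Hochberg adjusted over all genes. Counts of genes used an adjusted p under 0.05 and a 2-fold difference, and list members an adjusted p under 0.05. Data were simulated with independent normal noise and the same SD of a gene in all groups. At both thresholds 99% of genes changed by 1.5 and 100% of those changed by 2.5 (log2) were recovered, with 0 false calls. The 2-fold requirement alone keeps most unchanged genes from being called there, so the 0 says little. Unequal spread, shifts shared by many genes of a mouse, and calls without the fold requirement were not simulated. Arrays have no read depth, and 3 or 4 mice per group limit the precision. Same-numbered +/+;CrxpNrl and +/+ mice at P28 deviated together (correlation 0.212 to 0.370), with numbers taken from the labels; the block left that comparison at 24 against 21 genes. The members and lists were chosen with earlier results of these data known. Named genes were Rorb and Nrl, the 15 largest rises and falls without overlap, the 5 largest changes with age each way, and members of the lists, leaving out sex-linked and unnamed genes. Alternatives covered normalization, probe set choice, dim genes, the variance model, covariates, the samples fitted and leaving out each mouse. Promoters are RefSeq's, build GRCm38.p6. Some genes of the lists are not analysed here.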

Additional observations from a re-analysis of the deposited data

Results flagged for a closer look

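Of 174 gene and group pairs, 7 had 1 mouse standing apart from the other 3, and chance alone gives about 1 in 20. In Rorb-/-;CrxpNrl mice these were Gja10 in mouse 2 (3.98, others 4.36 to 4.38), Pdyn in mouse 2 (8.43, others 9.01 to 9.12) and Prph2 in mouse 1 (5.87, others 4.17 to 4.42). In +/+ mice they were Gnb3 in mouse 1 (11.11, others 11.24 to 11.25), Ifitm3 in mouse 1 (8.19, others 7.67 to 7.74), Gucy2e in mouse 4 (6.86, others 6.27 to 6.34) and Tulp1 in mouse 4 (12.98, others 12.84).

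The difference between Rorb-/-;CrxpNrl and +/+ changed from P14 to P28, by limma's test of the change itself, for 14 genes described above. It became more positive for Dct (4.04), Ttr (3.85), Ifit1 (3.80), Pmel (3.34), Usp18 (3.27), Calb1 (1.58), Gad2 (1.25) and Gfap (1.19). It became more negative for Otop3 (-2.54), Myocd (-2.48), Samd7 (-1.95), Fscn2 (-1.46), Gucy2e (-1.34) and Crx (-1.05). The mice of the 2 ages are different animals.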

How the results depend on the processing

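With no fold requirement the counts were 7264 (3834 higher, 3430 lower) for P28 Rorb-/-;CrxpNrl against +/+, 3493 against Rorb-/-, 6651 against +/+;CrxpNrl, 5657 for Rorb-/- and 40 for +/+;CrxpNrl against +/+, 5463 at P14 and 2823 for the change with age. Leaving out each mouse in turn gave 1202 to 1507 (765 to 948 higher, 415 to 559 lower) for the main pair, 239 to 355, 1209 to 1479, 1006 to 1026 and 14 to 20 for the other P28 comparisons in that order, 740 to 876 at P14 and 365 to 681 for the change with age. Other settings gave 1056 to 1509 genes for the main pair, the fewest without the 40% dimmest genes and the most with array weights. Same-numbered mice of the main pair did not deviate together (correlation -0.083 to 0.110); the replicate block gave 1319 genes, and moved 1 call, that of Prph2 (adjusted p = 0.031). Signs turned for Gngt2 without +/+ mouse 3 (0.0046) or 4 (0.0023) and without Rorb-/-;CrxpNrl mouse 3 (0.06) or 4 (0.15; -0.32 without mouse 1), for Otop3 without mouse 1 (-0.031; 0.84 without mouse 3), and for Rpe65 without +/+ mouse 3 (0.27; -0.69 without Rorb-/-;CrxpNrl mouse 4) and with array weights (0.035); the cause was not tested. Fitting the compared groups alone ended the call of 19 of 217 single-gene results, 13 of them against Rorb-/-. The sex covariate used Xist and Eif2s3y, and no setting tests dim genes near background.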
